A study of Mus musculus with 12 samples.

Results

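The osteocyte marker genes described here are 9 genes, Dmp1, Phex, Mepe, Fam20c, Pdpn, Ackr3, Sost, Fgf23 and Ostn, taken by name from a table of 32245 mouse genes. They were read in 12 bulk RNA libraries of OCY454, a mouse osteocyte-like cell line that multiplies at 33 °C and differentiates at 37 °C. The 6 groups were unedited cells (WT) and cells edited with CRISPR-Cas9 to remove Piezo1 exons 19 to 21 (KO), each taken on days 1, 14 and 28 of culture at 37 °C as a pair of libraries (2 per group). Piezo1 encodes a mechanically gated cation channel, and the comparisons ask how the edited line differs from the unedited line as the cells differentiate. All 6 groups came from this single cell line, the labels give no other agent or allele, and how many edited clones the KO line represents is not given in the sources used here. Nothing in the labels says that replicates 1 and 2 were separate cultures, so the p-values below measure the spread between these libraries, which may be technical.

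Osteocytes form when osteoblasts, the cells that lay down bone matrix, become buried in it and grow dendrites. Podoplanin (Pdpn) marks the early, dendrite-forming stage, Dmp1, Phex and Mepe accompany mineralisation and the control of phosphate, and sclerostin (Sost) and the phosphate-lowering hormone Fgf23 come from mature osteocytes. Fam20c is the kinase that phosphorylates secreted mineral-binding proteins, Ackr3 is an atypical chemokine receptor, and osteocrin (Ostn) is a secreted peptide that binds the natriuretic peptide clearance receptor.

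Total counts ran from 8590067 to 15357427 per library. Levels are given as CPM (counts scaled to a common library size) on TMM-scaled library totals, as mean ± SD over the 2 libraries of a group (n = 2). Fold changes are log2 values from edgeR's quasi-likelihood test over the 13772 genes that passed a filter on low counts, and a gene is called when its Benjamini-Hochberg adjusted p is below 0.05. Replicates differed by more than 1.5-fold in 167 of 9326 well-detected genes (at least 10 CPM) of the WT day 28 pair and in 62 of 9083 of the KO day 28 pair, against 3 to 24 in each of the other groups. A transgene row named YAPS127_P2A_EGFP held 82 and 45 counts in WT at day 14, 224 and 75 in WT at day 28 and 0 to 7 in every other library. The part of this transgene in the results was not tested. The Piezo1 row averaged 215, 208 and 238 CPM in WT and 170, 111 and 279 CPM in KO at days 1, 14 and 28. That row also counts exons outside the deletion, so it checks nothing about the edit. The 9 osteoblast markers Col1a1, Col1a2, Bglap, Bglap2, Alpl, Sp7, Runx2, Ibsp and Spp1 summed to between 6450 and 37100 CPM, and each was detected. Summed markers of blood cells (5.96 to 13.7 CPM), chondrocytes (38.0 to 68.6 CPM) and adipocytes (16.0 to 24.5 CPM) were low beside that sum. They were not low beside the scarcer of the 9 genes. The chondrocyte sum exceeded every group mean of Dmp1, Phex, Ackr3, Mepe, Sost, Fgf23 and Ostn.

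Levels differed widely between the 9 genes. Per kb of exon and averaged over the 12 libraries, Pdpn was highest at 22.97 CPM per kb, followed by Fam20c at 6.43, Ostn at 2.89 and Dmp1 at 2.86. Phex averaged 0.876, Ackr3 0.739, Mepe 0.678 and Sost 0.394 CPM per kb. Fgf23 lay lowest at 0.0251 CPM per kb, with 7 counts in all 12 libraries together. The scarce genes were therefore read from few counts: 4 to 20 per library for Sost and 6 to 19 for Mepe. Fgf23 was the only one of the 9 that did not pass the filter, which left 8 with a test. Ackr3 and Ostn had at most 6 and 0 counts per library in KO at days 1 and 14 and passed through the groups in which they were higher, so a count of called members is a description of these genes and not support for a common direction.

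**Figure D1:**
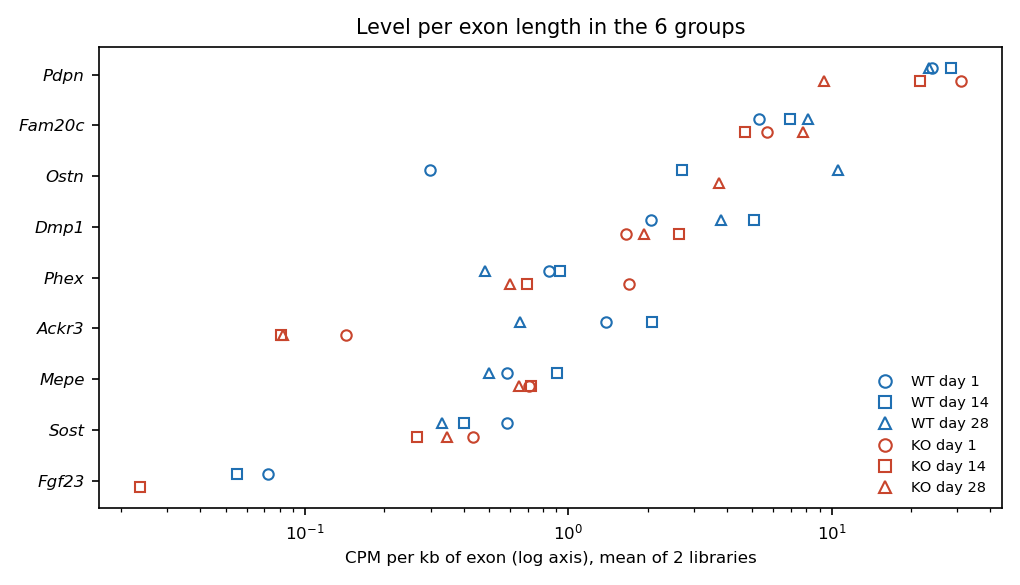
Mean level of each of the 9 genes in the 6 groups, as CPM per kb of exon on a log axis (2 libraries per mean; circles day 1, squares day 14, triangles day 28; blue WT, red KO). Groups at 0 cannot be drawn on this axis: 3 for Fgf23 and 2 for Ostn. Pdpn has its lowest group at 9.36 CPM per kb, while Ostn runs from 0 to 10.6, above Fam20c (8.14) in WT at day 28.

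Against WT, the KO line had lower Dmp1, Pdpn, Ackr3 and Ostn at both later days, and lower Ackr3 and Ostn already at day 1. At day 1 it had higher Phex and slightly higher Pdpn. In numbers, 4 of the 8 tested members were called at day 1 (2 higher, 2 lower), where 40.3% of all genes tested were called. At day 14, 5 of 8 were called, all lower in KO, beside 49.7% of all genes, and at day 28 the 4 called members were all lower, beside 41.0%. These shares lie near the background of each comparison. The median log2 fold change of the 8 members was -0.11, -0.55 and -0.53 at days 1, 14 and 28, against -0.01, -0.02 and -0.01 over all genes tested. These 3 medians are the same with Ostn at the bound that its 0 counts allow. They include Ackr3 and Ostn, which passed the filter through the groups in which they were higher, so they give no support for a common shift. Among the other members at day 28, Dmp1 (-0.99), Pdpn (-1.31) and Fam20c (-0.07) lay below 0. Phex (0.33), Mepe (0.31) and Sost (0.02) lay above it. Because the libraries are bulk RNA, fewer cells of a type and less RNA per cell cannot be told apart.

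**Figure D2:**
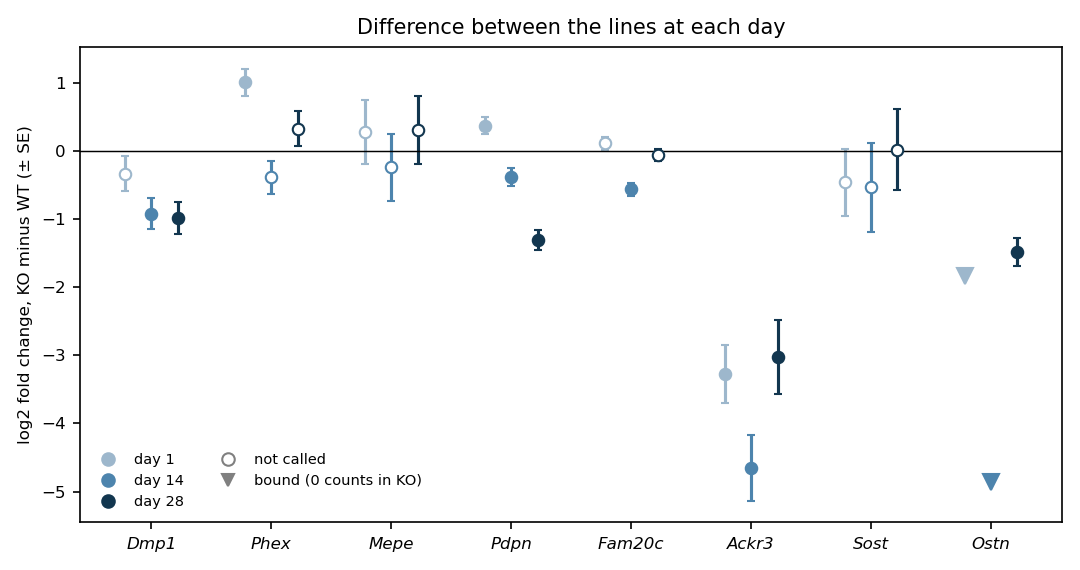
Log2 fold change of KO against WT at days 1, 14 and 28 for the 8 tested genes (points with ± SE; filled where the adjusted p is below 0.05, open otherwise; triangles mark bounds for Ostn, which had 0 counts in KO). Ackr3 lies near -3 or below at every day, Pdpn passes from 0.37 to -1.31, and Mepe and Sost have wide bars around 0.

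Within WT, 3 of 8 members were called between days 1 and 14, all higher (Dmp1, Fam20c and Ostn), where 34.1% of all genes were called. Between days 14 and 28, 3 were called (Ostn higher, Phex and Ackr3 lower) beside 34.7% of all genes, and between days 1 and 28, 5 were called (Dmp1, Fam20c and Ostn higher, Phex and Ackr3 lower) beside 48.0%. Within KO, 4 were called between days 1 and 14 (Dmp1 higher, Phex, Pdpn and Fam20c lower) beside 37.5%. Between days 14 and 28 of the KO line, 3 were called (Fam20c and Ostn higher, Pdpn lower) beside 50.7%, and between days 1 and 28, 4 were called (Fam20c and Ostn higher, Phex and Pdpn lower) beside 55.5%. The difference between the lines in their change was itself called for 3 members from day 1 to 14 (Phex, Pdpn and Fam20c, all lower in KO; 18.8% of all genes), for 3 from day 14 to 28 (Pdpn lower, Fam20c and Ostn higher; 24.1%) and for 1 from day 1 to 28 (Pdpn, lower; 20.0%).

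**Figure D3:**
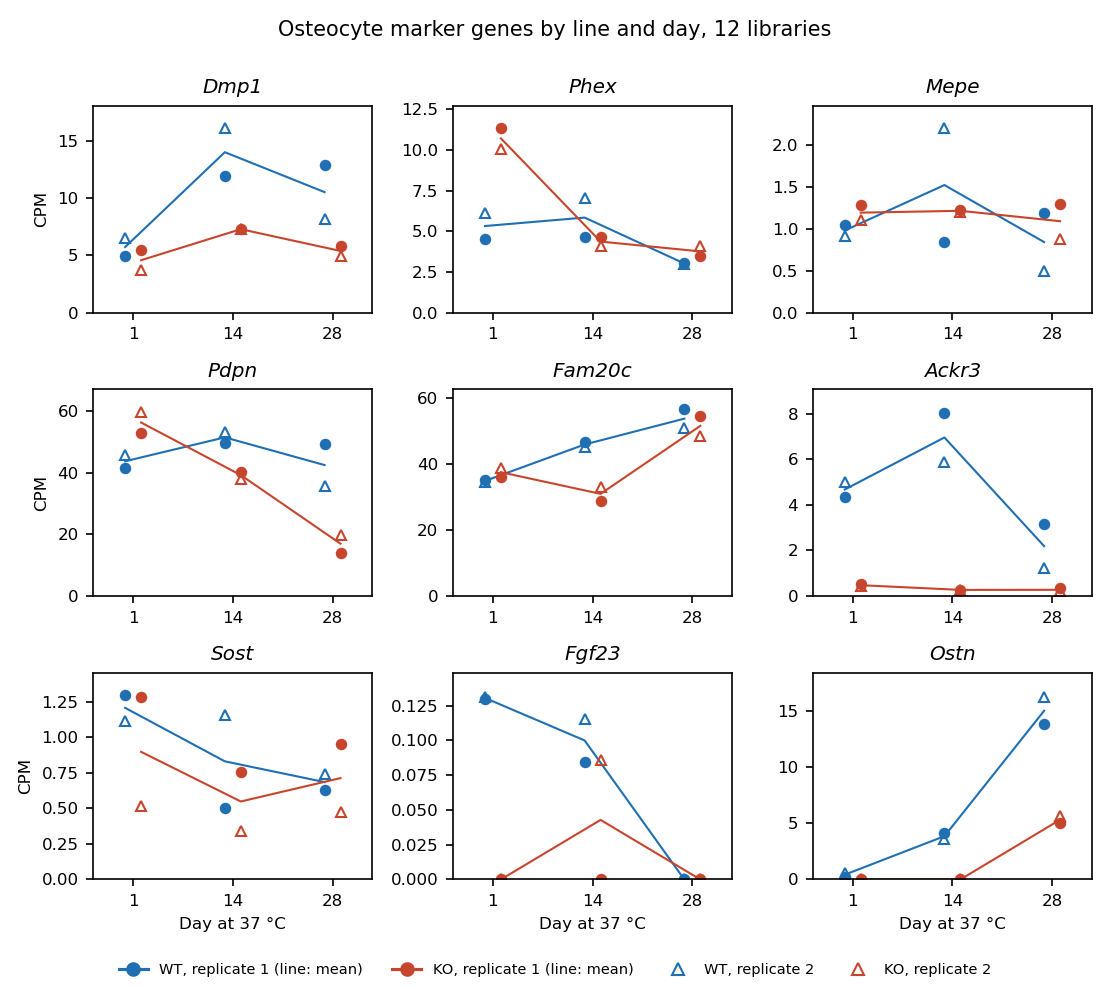
CPM of the 9 genes in every library by day at 37 °C (blue WT, red KO; filled circles replicate 1, open triangles replicate 2; lines join the group means), with a separate linear axis per gene. KO lies below WT in Ackr3 and Ostn at every day and in Dmp1 and Pdpn at days 14 and 28. The lines overlap in Sost at every day and in Mepe at days 14 and 28.

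Ordered by group mean, Dmp1 was highest in WT at day 14, then in WT at day 28, KO at day 14, WT at day 1, KO at day 28 and KO at day 1, where the first and second groups overlapped and so did the last 3 in turn. Phex was highest in KO at day 1, followed by WT at days 14 and 1 and KO at day 14, which overlapped in turn, and by KO and WT at day 28, which did not. For Pdpn the order ran from KO at day 1 and WT at day 14, which overlapped, through WT at day 1, WT at day 28 and KO at day 14, which overlapped in turn, to KO at day 28 alone at the bottom. Fam20c was highest in WT and KO at day 28, which overlapped, and the other groups followed without overlap as WT at day 14, KO at day 1, WT at day 1 and KO at day 14. Ackr3 ran without overlap through WT at days 14, 1 and 28 to KO at day 1, and then to KO at days 28 and 14, which overlapped.

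Podoplanin is a membrane glycoprotein that links the cell surface to actin through ezrin and moesin. The gene lies on the reverse strand at chr4:143267431-143299564 (GRCm38), with 1817 bases of exon. In WT, Pdpn read 41.6 and 45.9 CPM on day 1, 49.8 and 53.2 on day 14 and 49.5 and 35.6 on day 28. In KO it read 52.8 and 59.9 CPM on day 1, 40.4 and 38.1 on day 14 and 14.1 and 19.9 on day 28. The KO values thus went from above WT at day 1 to below WT at days 14 and 28, with no overlap of the lines at any day.

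The day 28 difference in Pdpn was the largest of the 3, with a log2 fold change of -1.31 ± 0.14 (SE; 2.48-fold lower in KO; edgeR adjusted p = 3.34e-07). At day 1 Pdpn was higher in KO by 0.37 ± 0.13 (edgeR adjusted p = 0.0236). This call was lost on library totals alone (0.31, adjusted p = 0.0606), without WT day 1 replicate 1 (0.30, adjusted p = 0.171) and without KO day 1 replicate 2 (0.27, adjusted p = 0.227). At day 14 the difference of -0.39 ± 0.13 (edgeR adjusted p = 0.02) was lost without WT day 14 replicate 1 (-0.44, adjusted p = 0.0511) or 2 (-0.34, adjusted p = 0.111) and without KO day 14 replicate 1 (-0.43, adjusted p = 0.0577) or 2 (-0.35, adjusted p = 0.123). Within KO, Pdpn fell by 1.71 ± 0.14 on the log2 scale from day 1 to day 28 (3.28-fold; edgeR adjusted p = 2.07e-09), while in WT the same change was -0.03 (95% interval -0.30 to 0.23). WT changes of 0.23 from day 1 to 14 and -0.27 from day 14 to 28 were not called in the main model. The first was called without WT day 28 replicate 1 (0.23, adjusted p = 0.0491) or 2 (0.23, adjusted p = 0.0486) and with the groups compared alone (0.24, adjusted p = 0.0109). The second was called with no filter on low counts (-0.27, adjusted p = 0.0397) and without WT day 28 replicate 1 (-0.53, adjusted p = 0.000772), when the change from day 1 to 28 was also called (-0.30, adjusted p = 0.0398). The step from day 1 to 14 in KO, -0.52, was lost without KO day 1 replicate 2 (-0.43, adjusted p = 0.0614). KO changed less upward, or further downward, than WT in each interval: the differences were -0.76 ± 0.18 from day 1 to 14, -0.92 ± 0.20 from day 14 to 28 and -1.68 ± 0.19 from day 1 to 28 (edgeR adjusted p = 0.00568, 0.00154 and 2.32e-06).

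Of 8 listed genes of proteins that podoplanin binds or meets at the membrane, 7 were tested. At day 1, 5 were higher in KO and 0 lower, led by the actin linker ezrin (Ezr, 0.87 ± 0.08) and the hyaluronan receptor Cd44 (0.52 ± 0.09). At day 14, 2 were higher and 1 lower, and at day 28, 1 was higher (the tetraspanin Cd9, 0.51 ± 0.08) and 1 lower (the membrane protease Mmp14, -0.29 ± 0.07), with a list median of -0.03 against -0.01 over all genes. The genes called over the whole table made up 40.3%, 49.7% and 41.0% at days 1, 14 and 28. Ezr averaged 227 CPM in KO at day 1 and 88.5 at day 28, and 124 and 98.5 CPM in WT, so it too fell further in KO (difference of change -1.03 ± 0.11, edgeR adjusted p = 1.08e-06).

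Ackr3 takes up the chemokine Cxcl12 and adrenomedullin (Adm) and recruits arrestins. It lies at chr1:90203980-90216751 on the forward strand, with 3348 bases of exon. WT libraries held 67 and 76 counts of Ackr3 on day 1, 95 and 51 on day 14 and 45 and 15 on day 28. KO libraries held 6 and 6 counts on day 1, 3 and 3 on day 14 and 4 and 3 on day 28. Every KO library was below every WT library, and the KO values stayed within 3 to 6 counts over the time course.

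As levels, Ackr3 averaged 4.67 ± 0.45, 6.96 ± 1.49 and 2.19 ± 1.35 CPM in WT and 0.477 ± 0.050, 0.270 ± 0.018 and 0.275 ± 0.101 CPM in KO at days 1, 14 and 28. KO was lower by -3.27 ± 0.43 at day 1 (9.66-fold), -4.66 ± 0.48 at day 14 (25.2-fold) and -3.03 ± 0.55 at day 28 (8.15-fold), with edgeR adjusted p = 3.14e-06, 7.38e-08 and 0.000145. The 3 calls held in all 19 alternative settings. In WT, Ackr3 fell from day 14 to day 28 (-1.64 ± 0.31, edgeR adjusted p = 0.000345). The WT fall from day 1 to day 28 (-1.05 ± 0.31, edgeR adjusted p = 0.00866) was lost without WT day 28 replicate 2 (-0.57, adjusted p = 0.134) or WT day 1 replicate 2 (-0.95, adjusted p = 0.0643). The WT change from day 1 to 14 (0.59 ± 0.28, adjusted p = 0.106) was not called in the main model, but was without WT day 28 replicate 1 (0.59, adjusted p = 0.0385) or 2 (0.59, adjusted p = 0.0362), with the groups compared alone (0.60, adjusted p = 0.0133) and with no filter on low counts (0.60, adjusted p = 0.0497). No difference between the lines in these changes was called: from day 14 to 28 the difference was 1.63 with a 95% interval of -0.41 to 3.67, which is too wide to show that they changed alike.

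Of 10 listed ligands, partner receptors and arrestins of Ackr3, 7 were tested, and 4 were lower and 2 higher in KO on day 1, 3 and 1 on day 14 and 4 and 1 on day 28, beside 40.3%, 49.7% and 41.0% of all genes called. The list medians were -0.96, -0.29 and -0.22, against -0.01, -0.02 and -0.01 over all genes. The list includes Adm and Calcrl, which had at most 3 and 6 counts per library in KO and passed the filter through WT groups. These counts and medians therefore give no support for a common shift. Adm, the vasoactive peptide that Ackr3 scavenges, held 62 and 57 counts in WT at day 1 and 47 and 38 at day 14, against 1 and 1 and then 3 and 0 in KO. At day 28 Adm held 12 and 6 counts in WT and 1 and 0 in KO. Calcrl, the signalling receptor for Adm, was lower in KO by -2.18 ± 0.45, -2.51 ± 0.49 and -2.53 ± 0.41 at days 1, 14 and 28. The listed partners Ramp1 and Ramp2 were not lower throughout. Ramp1 averaged 36.4, 48.2 and 15.2 CPM in WT and 11.8, 38.5 and 30.3 in KO. Ramp2 averaged 1.47, 3.17 and 3.05 CPM in WT and 0.746, 4.79 and 4.05 in KO. Cxcl12 was not lower throughout: it averaged 83.3, 135 and 84.9 CPM in WT and 153, 111 and 72.7 in KO, and its change from day 1 to 14 differed between the lines by -1.16 ± 0.11 (edgeR adjusted p = 3.6e-07).

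Ackr3 and Pdpn are also expressed by endothelial cells, and endothelial transcripts were detected at low levels. The 7 endothelial markers Pecam1, Cdh5, Kdr, Tek, Lyve1, Prox1 and Flt4 summed to 2.21 to 4.72 CPM at day 1, 4.51 to 6.07 at day 14 and 6.98 to 7.10 at day 28 in WT, and to 1.32 to 2.36 CPM over all KO libraries. None was at 0 in every library, and 2 had at most 5 counts in any library. Of the 4 tested, 0 were called between the lines at day 1, and 2 were lower in KO at day 14 and 2 at day 28. Over all genes, 40.3%, 49.7% and 41.0% were called at days 1, 14 and 28, so the counts at the later days lie near the background. In WT that sum was highest at day 28, when Ackr3 was lowest, while at each day both the sum and Ackr3 were lower in KO than in WT. The part of these transcripts in the Ackr3 and Pdpn results was not tested.

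Dmp1 and Mepe belong to a cluster of genes for secreted mineral-binding proteins on chromosome 5, with Ibsp between them. Dmp1, which nucleates mineral and whose loss raises Fgf23, lies at chr5:104202613-104214102 and Mepe at chr5:104325329-104338611, both on the forward strand. In WT, Dmp1 read 4.94 and 6.50 CPM on day 1, 11.9 and 16.1 on day 14 and 12.8 and 8.17 on day 28. In KO it read 5.47 and 3.68 CPM on day 1, 7.27 and 7.29 on day 14 and 5.80 and 4.96 on day 28. The lines overlapped at day 1, and every WT library lay above every KO library at days 14 and 28.

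Dmp1 was lower in KO by -0.92 ± 0.23 at day 14 (1.9-fold; edgeR adjusted p = 0.00185) and by -0.99 ± 0.23 at day 28 (1.98-fold; adjusted p = 0.00176). The day 28 call was lost without WT day 28 replicate 1 (-0.61, adjusted p = 0.0539). At day 1 the difference was -0.34 with a 95% interval of -0.87 to 0.20. Dmp1 rose in WT by 1.27 ± 0.22 from day 1 to day 14 (2.42-fold; edgeR adjusted p = 0.000146) and by 0.89 ± 0.22 from day 1 to day 28 (adjusted p = 0.00246), the second of which was lost without WT day 28 replicate 1 (0.51, adjusted p = 0.0783). From day 14 to 28 the WT change of -0.38 (adjusted p = 0.168) was called only in the setting without WT day 28 replicate 1 (-0.75, adjusted p = 0.00821). The rise in KO from day 1 to day 14, 0.68 ± 0.26 (edgeR adjusted p = 0.0422), was less stable. Its call was lost on library totals alone (0.64, adjusted p = 0.0582), with DESeq2 (0.68, adjusted p = 0.0571), with limma-voom (0.71, adjusted p = 0.0548), and without KO day 1 replicate 2 (0.41, adjusted p = 0.352), KO day 14 replicate 1 (0.69, adjusted p = 0.129) or KO day 14 replicate 2 (0.68, adjusted p = 0.14). The difference between the lines in these changes was -0.59 ± 0.34 from day 1 to 14 (edgeR adjusted p = 0.257) and -0.65 ± 0.35 from day 1 to 28 (adjusted p = 0.207). The second of these was called without WT day 28 replicate 2 (-0.93, adjusted p = 0.0244).

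Mepe, a matrix phosphoglycoprotein of mineralising osteocytes, held 16 and 14 counts in WT on day 1, 10 and 19 on day 14 and 17 and 6 on day 28. KO held 15 and 15, then 13 and 14, then 15 and 13 counts. No Mepe comparison was called in any setting run, and each of the 6 groups overlapped the next in order. At day 14 the log2 fold change of KO against WT was -0.25 with a 95% interval of -1.26 to 0.77, which is too wide to show that the lines were alike.

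The other listed genes within the same 427 kb of chromosome 5, which include the channel gene Pkd2, did not follow a single direction. Of Ibsp, Spp1, Sparcl1, Pkd2 and Dspp, 4 were tested, and 3 were lower and 1 higher in KO at days 1 and 14, and 3 lower and 0 higher at day 28, beside 40.3%, 49.7% and 41.0% of all genes called. Spp1, which encodes osteopontin, was lower in KO by -0.47 ± 0.08, -0.81 ± 0.09 and -1.26 ± 0.08 at the 3 days. Ibsp, bone sialoprotein, ran from 1053 to 3533 CPM per group and was lower by -1.16 ± 0.13 at day 1 and -0.54 ± 0.13 at day 28. Sparcl1, a matricellular protein, went the other way, with 2.02 ± 0.14 higher levels on the log2 scale in KO at day 14 (43.0 against 10.6 CPM).

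Phex, a membrane peptidase on the X chromosome whose loss causes phosphate wasting with high Fgf23, had its peak in KO at day 1. It lies on the reverse strand at chrX:157162075-157415312, with 6291 bases of exon. It overlaps the small RNA gene Gm23798 on the opposite strand, and the small RNA gene Gm25795 and the pseudogene Gm15172 on its own strand. KO read 11.4 and 10.1 CPM of Phex on day 1, 4.62 and 4.11 on day 14 and 3.46 and 4.07 on day 28. WT read 4.55 and 6.10 CPM on day 1, 4.64 and 7.06 on day 14 and 3.07 and 2.97 on day 28. The day 1 KO libraries stood above all 10 others.

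Phex was 2.01-fold higher in KO at day 1 (log2 1.00 ± 0.20, edgeR adjusted p = 0.000396), and this call held in all 19 alternatives. At days 14 and 28 the differences were -0.39 (95% interval -0.90 to 0.12) and 0.33 (-0.21 to 0.87). KO fell by 1.29 ± 0.22 on the log2 scale between days 1 and 14 (2.45-fold; edgeR adjusted p = 8.07e-05), while WT changed by 0.10 (95% interval -0.37 to 0.58), and the lines differed in this change by -1.40 ± 0.32 (edgeR adjusted p = 0.00342). WT fell later, by 0.92 ± 0.25 from day 14 to day 28 (edgeR adjusted p = 0.00759). That fall was lost without WT day 14 replicate 2 (-0.61, adjusted p = 0.136), and the WT fall from day 1 to day 28 (-0.81 ± 0.24, edgeR adjusted p = 0.00837) was lost without WT day 1 replicate 2 (-0.58, adjusted p = 0.123). By day 28 both lines were lower than at day 1, KO by 1.49 ± 0.22 (2.82-fold).

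Fam20c, the secretory-pathway kinase, rose with days in WT and dipped in KO. The gene lies on the forward strand at chr5:138754514-138810077, away from the cluster, with 6590 bases of exon. WT read 35.2 and 34.4 CPM on day 1, 46.5 and 45.1 on day 14 and 56.5 and 50.8 on day 28. KO read 36.1 and 38.8 CPM on day 1, 28.9 and 32.9 on day 14 and 54.5 and 48.4 on day 28. The lines did not overlap at days 1 and 14, with KO slightly above WT at the first and below it at the second, and they overlapped at day 28.

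At day 14 Fam20c was lower in KO by -0.57 ± 0.10 (1.48-fold; edgeR adjusted p = 5.75e-05), a call that held in all 19 alternatives. At days 1 and 28 the differences were 0.11 (95% interval -0.09 to 0.30) and -0.07 (-0.25 to 0.12). From day 1 to 14, WT rose by 0.40 ± 0.09 (edgeR adjusted p = 0.00223) and KO fell by 0.28 ± 0.10 (adjusted p = 0.0305), a difference of -0.67 ± 0.14 (adjusted p = 0.00121). The KO fall was lost with DESeq2 (-0.28, adjusted p = 0.0717) and without KO day 1 replicate 2 (-0.22, adjusted p = 0.202) or KO day 14 replicate 1 (-0.19, adjusted p = 0.261). From day 14 to 28, KO rose by 0.73 ± 0.09 (edgeR adjusted p = 1.46e-06) and WT changed by 0.23 ± 0.09 (adjusted p = 0.0578), a difference of 0.50 ± 0.13 (adjusted p = 0.00745). The WT change passed without WT day 28 replicate 2 (0.30, adjusted p = 0.0206), without KO day 28 replicate 2 (0.23, adjusted p = 0.0499) and with RLE size factors (0.23, adjusted p = 0.0493), and the difference was lost without KO day 14 replicate 1 (0.41, adjusted p = 0.0602). From day 1 to day 28 the rises were 0.63 ± 0.09 in WT and 0.45 ± 0.09 in KO, and they differed by -0.17 (95% interval -0.44 to 0.09).

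**Figure D4:**
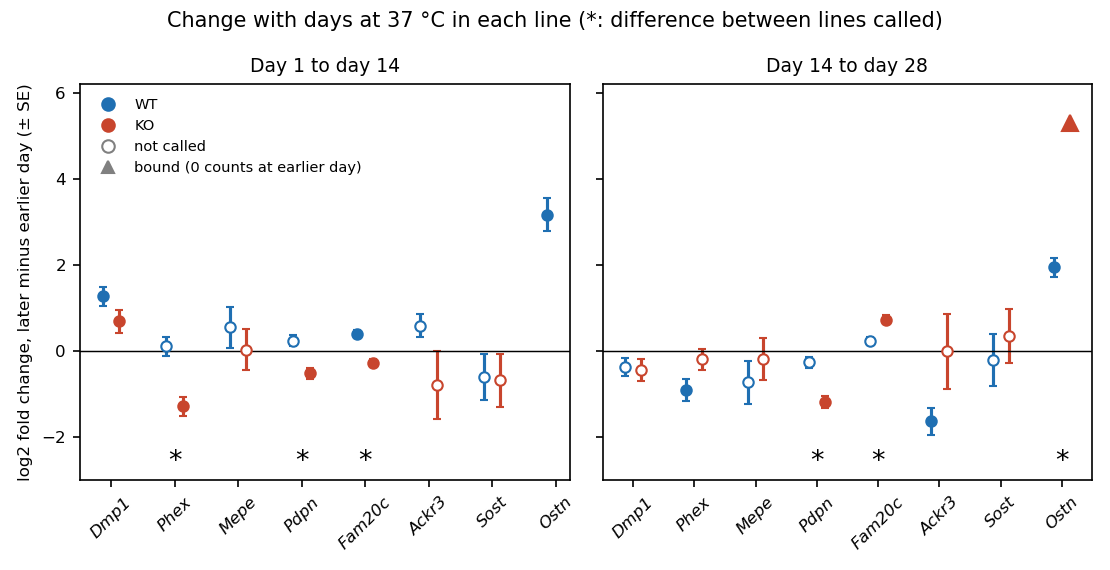
Log2 fold change between days in WT (blue) and KO (red) for the 8 tested genes, from day 1 to 14 (left) and from day 14 to 28 (right), with ± SE bars (filled where the adjusted p is below 0.05). A triangle marks the bound for Ostn in KO, asterisks mark genes whose change differed between the lines, and no KO point is drawn for Ostn from day 1 to 14, where both days had 0 counts. Phex, Pdpn and Fam20c lie below 0 in KO on the left and near or above 0 in WT.

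Fgf23 lowers phosphate by acting on the kidney, and it was scarcely detected here. It lies at chr6:127072902-127081408 on the forward strand. WT held 2 and 2 counts on day 1, 1 and 1 on day 14 and 0 and 0 on day 28, and KO held 0 and 0, then 0 and 1, then 0 and 0. Each library with a count of 0 allows up to 3 counts, which is more than any library held, so no difference was detectable at this depth.

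Of 17 listed genes that process Fgf23, receive it or handle phosphate, 13 were tested, and 8 were higher and 3 lower in KO on day 1, 7 and 4 on day 14 and 5 and 6 on day 28, beside 40.3%, 49.7% and 41.0% of all genes called. Their medians were 0.34, 0.22 and 0.05 against -0.01, -0.02 and -0.01 over all genes. Enpp1, which makes the mineral inhibitor pyrophosphate, was lower in KO by -2.16 ± 0.26, -2.37 ± 0.24 and -2.11 ± 0.20 at the 3 days. Furin, a protease that can cleave Fgf23, was higher in KO by 0.71 ± 0.08 at day 1 and 0.84 ± 0.09 at day 14. Galnt3, whose sugar modification protects Fgf23 from cleavage, was lower by -0.91 ± 0.08 at day 1. Alpl, the phosphatase that removes pyrophosphate, averaged 967 CPM in KO at day 14 and 157 at day 28, against 699 and 367 CPM in WT.

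Sclerostin, the Wnt antagonist encoded by Sost at chr11:101962458-101967015 on the reverse strand, was also scarce. WT libraries held 20 and 17 counts on day 1, 6 and 10 on day 14 and 9 and 9 on day 28, and KO libraries held 15 and 7, then 8 and 4, then 11 and 7. All neighbouring groups overlapped in their order, from WT day 1 (1.21 ± 0.13 CPM) to KO day 14 (0.549 ± 0.291 CPM). No Sost comparison was called in any setting run. The log2 fold change of KO against WT was -0.46 (95% interval -1.48 to 0.56) at day 1, -0.54 (-1.90 to 0.82) at day 14 and 0.02 (-1.21 to 1.24) at day 28.

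Of 16 receptors, relatives and upstream regulators of sclerostin, 15 were tested, and 3 were higher and 2 lower in KO on day 1, 5 and 1 on day 14 and 4 and 4 on day 28, beside 40.3%, 49.7% and 41.0% of all genes called. Their medians were 0.03, 0.13 and 0.02 against -0.01, -0.02 and -0.01 over all genes. The osteoblast transcription factors Sp7 and Runx2 were higher in KO at day 14 by 1.06 ± 0.16 and 0.92 ± 0.10. Mef2c, a factor that acts on a distant Sost enhancer, was lower by -0.48 ± 0.12 at day 1 and averaged 646 CPM in WT and 754 in KO at day 14. Dkk1, a further secreted Wnt antagonist, held 45 and 36 counts in WT at day 14 and 2 and 0 in KO. At day 14 the 9 osteoblast markers summed to 20900 to 22100 CPM in WT and 36900 to 37100 in KO, with 5 called higher and 4 lower. The part of this shift in the day 14 values of the osteocyte marker genes was not tested.

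Osteocrin rose steeply with days in WT and was counted in KO only at day 28. Ostn lies on the forward strand at chr16:27307489-27351212, with 1423 bases of exon, and overlaps the antisense gene Gm32312 and the pseudogene Gm15970 on the opposite strand. Whether reads were counted by strand is not given in the sources used here, so reads of these partners cannot be told apart from those of Ostn. WT libraries held 4 and 9 counts on day 1, 49 and 31 on day 14 and 198 and 197 on day 28. The KO libraries held 0 and 0 on day 1, 0 and 0 on day 14 and 58 and 83 on day 28. The WT day 28 libraries were highest (13.8 and 16.3 CPM), those of KO at day 28 came next (5.02 and 5.64 CPM), and the order then ran through WT day 14 (3.86 ± 0.38 CPM) and WT day 1 (0.425 ± 0.234 CPM) to the 4 KO libraries at 0, with no overlap between groups above 0.

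In WT, Ostn rose by 3.17 ± 0.38 from day 1 to day 14 (8.97-fold), by 1.95 ± 0.22 from day 14 to day 28 (3.85-fold) and by 5.11 ± 0.30 over the whole course (34.6-fold), with edgeR adjusted p = 3.22e-06, 2.47e-06 and 8.8e-11. With 3 counts over the group in place of 0, Ostn in KO was at least 3.58-fold lower than in WT at day 1 and at least 29.0-fold lower at day 14 (edgeR adjusted p = 0.00387 and 9.15e-08). At day 28 it was lower by -1.49 ± 0.20 (2.80-fold; adjusted p = 9.86e-06). Within KO, day 28 was at least 45.2-fold higher than day 1 and at least 39.8-fold higher than day 14. From day 14 to 28 the rise in KO was thus at least 10.4 times that in WT (edgeR adjusted p of the difference = 8.1e-05). Each of these calls held in all 19 alternatives. From day 1 to 28 the difference between the lines in their change was not called (fitted at 3.97, edgeR adjusted p = 0.081), and that fit rests on 0 counts in KO at day 1. From day 1 to 14 the difference could not be estimated, since KO held 0 counts at both days. The bounds above allow for counting error in the groups at 0 only. The counts of the other groups were taken as exact, and spread between cultures is not covered.

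Of Npr1, Npr2, Npr3 and Nppc, 3 were tested: 0 were called between the lines at day 1, 2 were lower in KO at day 14 and 1 was higher at day 28, beside 40.3%, 49.7% and 41.0% of all genes. Npr3, the clearance receptor that osteocrin binds, averaged 2.12, 4.38 and 2.87 CPM in WT and 1.999, 0.691 and 1.91 CPM in KO, and was lower in KO at day 14 by -2.67 ± 0.43 (edgeR adjusted p = 2.4e-05). Npr2, the signalling receptor of C-type natriuretic peptide, was lower by -0.46 ± 0.09 at day 14 and higher by 0.26 ± 0.09 at day 28. Osteocrin is also a muscle product, and of 6 muscle markers the myogenic factors Myod1 and Myog were at 0 in all 12 libraries. Of the 6, 2 were tested: 1 was higher in KO at day 1 and 1 at day 14, and 0 were called at day 28. Over all genes, 40.3%, 49.7% and 41.0% were called at these days. The 6 summed to 11.6 to 23.1 CPM per library. The part of muscle transcripts in the Ostn result was not tested.

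Among 10 other genes reported in osteocytes, 9 were tested, and 2 were higher and 4 lower in KO on day 1, 3 and 4 on day 14 and 2 and 3 on day 28, beside the same 40.3%, 49.7% and 41.0% of all genes. The chaperone Hyou1 was lower in KO at day 14 by -2.14 ± 0.09, with 137, 595 and 1211 CPM in WT and 106, 136 and 1463 CPM in KO at the 3 days. Its rise from day 14 to 28 in KO exceeded that of WT by 2.41 ± 0.12 on the log2 scale (edgeR adjusted p = 7.77e-12). Gja1, the gap junction protein connexin 43, was higher in KO by 1.49 ± 0.09 at day 14 and 0.64 ± 0.09 at day 28. Tnfrsf11b, the decoy receptor osteoprotegerin, was lower in KO by -1.09 ± 0.13 at day 1 and -1.01 ± 0.17 at day 28.

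The 8 tested members did not share a single profile over the 12 libraries, and Fgf23 was too scarce to compare. Correlations of their log2 CPM (Pearson r) are given as descriptions, since the libraries share 6 groups and their depths. The closest pair was Fam20c with Ostn (r = 0.906) and the most opposed was Phex with Ostn (r = -0.635), while Dmp1 with Ackr3 reached 0.595. Of all genes tested, those nearest in profile to Ostn were Pkd2, a calcium channel gene in the same chromosome stretch as Dmp1 (r = 0.992), Gnpda1 (0.985) and Gtpbp2 (0.984). Pkd2 averaged 295, 449 and 557 CPM in WT and 217, 224 and 468 CPM in KO. Nearest to Ackr3 were Eva1b (0.984), Cln6 (0.98) and the small heat shock protein gene Hspb1 (0.979), and Hspb1 averaged 7.25, 7.56 and 4.33 CPM in WT and 2.42, 2.02 and 1.57 in KO. Pdpn was followed most closely by Gpx1 and Jund (both 0.971) and Ccdc39 (0.962), Fam20c by AW549877 (0.977), Atp6ap1 (0.958) and Mfsd11 (0.954), and Dmp1 by 2510009E07Rik (0.945), Esm1 (0.939) and Pde7b (0.938). Phex lay nearest to Pdlim5 (0.936), the non-muscle myosin gene Myh10 (0.910) and Pigk (0.904). The scarce genes Sost and Mepe had the weakest best matches, A930015D03Rik (0.859), Dtwd2 (0.852) and Spdya (0.839), and Gm16201 (0.846), Zfp433 (0.831) and Tax1bp3 (0.824), and both genes were read from few counts.

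Promoter sequence was compared for the members with an entry in RefSeq (GRCm38.p6), the 250 bases before each start, which gave windows for 8 of the 9 genes (all but Ostn) and a pair of windows for Dmp1. Those of Dmp1 (second start, chr5:104202367-104202616, forward strand), Ackr3 (chr1:90203730-90203979, forward strand) and Pdpn (chr4:143299565-143299814, reverse strand) are printed 5′ to 3′, because these members, like Ostn, were lower in KO at both day 14 and day 28. Capitals mark every match, on either strand, to 4 motifs that do not overlap one another: the TATA box TATAAA, the RUNX core ACCACA, the E-box CACGTG and the TEAD core CATTCC.
Dmp1: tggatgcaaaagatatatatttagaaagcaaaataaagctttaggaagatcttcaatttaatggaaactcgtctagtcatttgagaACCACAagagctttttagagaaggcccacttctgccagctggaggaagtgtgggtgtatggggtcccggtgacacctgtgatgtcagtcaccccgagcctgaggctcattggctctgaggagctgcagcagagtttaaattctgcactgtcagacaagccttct
Ackr3: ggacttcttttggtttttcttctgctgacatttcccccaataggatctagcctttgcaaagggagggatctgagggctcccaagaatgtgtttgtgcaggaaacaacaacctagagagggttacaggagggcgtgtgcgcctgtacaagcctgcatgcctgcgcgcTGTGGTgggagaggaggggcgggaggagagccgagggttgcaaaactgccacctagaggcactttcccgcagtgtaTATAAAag
Pdpn: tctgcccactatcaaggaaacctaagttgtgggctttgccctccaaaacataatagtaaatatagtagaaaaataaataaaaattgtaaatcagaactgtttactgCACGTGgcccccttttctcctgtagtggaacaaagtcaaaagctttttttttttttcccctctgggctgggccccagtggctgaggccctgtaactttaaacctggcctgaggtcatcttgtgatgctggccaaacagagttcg
Over all 32851 windows of this length, 12.4% held the TATA box, 14.0% the RUNX core, 6.02% the E-box and 12.6% the TEAD core. The printed Dmp1 window held 1 RUNX core at position -164 from the start, that of Ackr3 held 1 RUNX core at -84 and 1 TATA box at -8, and that of Pdpn held 1 E-box at -144. The window before the first Dmp1 start, which is not printed, held 2 E-boxes and none of the other motifs, and that of Mepe held 2 RUNX cores and 1 TATA box. No window of a member held the TEAD core, and the 3 printed windows share no motif common to all. Their G+C content was 45.6%, 54.0% and 43.2%, against a median of 52.4% over all windows. The windows of the other members ran from 38.0% in Mepe to 81.2% in Fam20c. These matches describe the letters in the windows only.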

How the data were processed

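The deposited table held read counts per gene for 12 libraries of poly(A) RNA. Per the submitters' processing notes, the authors aligned reads with STAR to mm10 and counted them with featureCounts of Subread, and edgeR is named with no stated role. Not given in the sources used here were versions, annotation, strand setting and the treatment of multi-mapping reads. All columns were used (0 left out), and 3 transgene rows stayed out of the tests.

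The analysis used edgeR 4.0.16 and limma 3.58.1 under R 4.3.3. Low genes were removed by filterByExpr on the 6 groups (at least 10 counts, at least 15 in total). After TMM scaling (factors 0.942 to 1.05), a quasi-likelihood model with 1 coefficient per group (biological coefficient of variation 5.53%, residual degrees of freedom 6, prior 14.6) gave 12 two-sided comparisons, each adjusted over all genes tested by Benjamini-Hochberg. The code was tested on simulated data. Zero groups were set to a floor of 3 counts.

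Positions and exon lengths came from a GENCODE annotation of GRCm38 that held 97.5% of the table's gene names. Named are the 9 members, Piezo1, at most the 3 largest called changes per list and comparison, and the 3 genes most like each tested member over the 12 libraries (log2 CPM, prior count 2). Levels of listed genes at days outside that rule were chosen after their values were seen. The members and lists were chosen with earlier results of these data known. Alternatives were library totals, RLE size factors, no filter, DESeq2 1.42.0, limma-voom, the groups compared alone, a replicate block and each library left out.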

Additional observations from a re-analysis of the deposited data

Results flagged for a closer look

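The lines differed in how a member changed with days, by a test of the difference itself, in 7 cases. For Phex the change from day 1 to 14 was lower in KO by -1.40 on the log2 scale. For Pdpn the differences were -0.76 from day 1 to 14, -0.92 from day 14 to 28 and -1.68 from day 1 to 28. Fam20c differed by -0.67 from day 1 to 14 and by 0.50 from day 14 to 28. The fitted difference for Ostn from day 14 to 28 was 7.13, a value that depends on the prior count because KO held 0 counts at day 14.

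Outside the genes tested, the transgene row named YAPS127_P2A_EGFP reached 224 counts in a WT day 28 library, while no KO library held more than 7. The labels name no such construct, and its part in the results was not tested.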

How the results depend on the processing

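Of 42 called pairs of member and comparison, 31 kept their call in all 19 alternatives, 11 lost it in at least 1, and no called value changed sign. With the groups compared alone, 5 members were called in WT from day 1 to 14, and with DESeq2 2 in KO from day 1 to 14 (main: 3 and 4). Leaving out each library in turn gave 3 to 4 members called between the lines at day 1, 4 to 5 at day 14 and 3 to 4 at day 28. In WT it gave 3 to 5 from day 1 to 14 (5 without either WT day 28 library), 2 to 5 from day 14 to 28 (5 without WT day 28 replicate 1) and 3 to 5 from day 1 to 28 (3 without WT day 1 replicate 2). In KO it gave 1 to 4 from day 1 to 14 (1 without KO day 1 replicate 2, 2 without KO day 14 replicate 1), 3 from day 14 to 28 and 4 from day 1 to 28. For the difference between the lines it gave 3 from day 1 to 14, 2 to 3 from day 14 to 28 and 1 to 2 from day 1 to 28 (2 without WT day 28 replicate 2). The cause of these moves was not tested. A group left with 1 library is assumed in these fits to vary like the others.

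Correlations of same-numbered replicate deviations between groups ran from -0.12 to 0.24, the highest between WT and KO at day 28. The replicate block was a single term shared by all days, so it cannot capture a deviation shared at day 28 only. Pairing at day 28 alone was not tested. With a replicate block, the members called numbered 4, 5 and 4 between the lines at days 1, 14 and 28, and the counts of the other comparisons were also those of the main model. Over all genes, the groups compared alone gave 3721 calls between the lines at day 28 against 5646, and 4093 for the difference from day 1 to 14 against 2595. That difference gave 1678 calls without KO day 1 replicate 2 and 1679 without KO day 14 replicate 1. The difference from day 1 to 28 gave 1810 without KO day 1 replicate 1 and 1703 without replicate 2, against 2759, and WT from day 1 to 14 gave 3113 without WT day 1 replicate 2, against 4696. On library totals the order of the 6 groups was the same for 6 of the 9 members. Depth limits Sost, Mepe and Fgf23 most.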
